A study of Mus musculus with 2 samples.

Results

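The genes described here are 10 protein-coding genes of cytokine signalling through the JAK-STAT pathway, chosen by name: the transcription factors Stat3, Stat5a, Stat5b and Stat6, the kinases Jak1 and Jak3, and the inhibitors Socs1, Socs2, Socs3 and Cish. They are 10 of the 21938 protein-coding genes of the GENCODE M21 annotation of the mouse genome (GRCm38). For each gene, the binding of Gata3 was read over a region of the gene body and 20 kb to either side.

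These cytokine receptors have no kinase activity of their own and carry Janus kinases (JAKs) on their cytoplasmic tails. When a cytokine joins the receptor chains, the JAKs phosphorylate the receptor and then a STAT protein, which forms dimers, enters the nucleus and binds DNA. Stat6 carries the signal of IL-4 and IL-13, Stat5a and Stat5b carry that of IL-2 and IL-7, and Stat3 that of IL-6 and IL-21. Jak1 and Jak3 act together at receptors that contain the common gamma chain. The SOCS proteins and Cish are induced by STATs and damp the pathway by blocking JAKs or receptor sites and by marking them for degradation. Gata3 is the transcription factor that directs T helper 2 (TH2) cell differentiation, and it binds DNA at GATA sequences.

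Gata3 ChIP-seq was measured in 2 libraries of splenic mouse TH2 cells expanded in vitro, which the labels number as replicates 1 and 2 of 1 condition. Chromatin was immunoprecipitated with the anti-GATA3 antibody D13C9 and tagmented on the beads (ChIPmentation), in which a transposase fragments the captured chromatin and tags it with adaptors. The labels name neither genotype nor animals, the deposited data carry the tag CD4cre, a Cre recombinase driven by Cd4 regulatory sequence, and nothing says whether the libraries came from separate cultures. The extraction protocol of the labels names ILC2, whereas the other fields name TH2 cells. At the D and J segments of Trd, which alpha-beta T cells lose when Tcra rearranges, 7 and 4 reads were found where the library means would give 347 and 214. With a single condition and neither input nor IgG control used here, each library served as its own background. Library 1 held 40526613 reads and library 2 held 24970952 reads, which comes to 2.97 and 1.83 reads for an average window of 200 bp. Judged by their read names, the libraries were sequenced on different instruments, and effects of the run cannot be told apart from differences between the libraries.

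A peak here is a run of 200-bp windows that held more reads than the local background of the same library (exact Poisson test, one-sided, with a q of at most 0.01 after Benjamini-Hochberg adjustment over all windows with a read). The local background is the mean of the library or of the 5 kb or 10 kb around the window, whichever is highest, and it includes the reads of the peak itself. A peak is called shared where the peaks of both libraries overlap, and 23806 were shared over the genome. The height of a peak is the number of reads in its summit window per 1000000 reads of the library (RPM), and its percentile is its rank among all shared peaks by the lower of the libraries. Intervals are 95% exact Poisson intervals and cover counting error only.

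All 10 genes had a shared Gata3 peak in their region, against 54.8% of all protein-coding genes. Of the 31 distinct shared peaks in the regions, 3 lay within 2 kb of the start of their gene. The like share of all shared peaks was not counted. Jak1, Socs3 and Cish, 3 of 10 genes, had a shared peak within 2 kb of the start of the gene, against 11.7% of all genes. In the gene body 6 of 10 (Stat3, Stat5a, Stat5b, Jak1, Socs2 and Socs3) had one, against 29.4%. Since Stat5b, Stat5a and Stat3 are neighbours on chromosome 11, the 10 regions merge to 8 separate stretches of 669.8 kb, with 31 distinct shared peaks. This gives 4.63 shared peaks per 100 kb, against 0.873 over the chromosomes. The median over the 10 genes was 4.12 per 100 kb, while the median over all protein-coding regions was 0.954 and their 90th percentile 4.08. Jak1 had 12 shared peaks, Cish and Stat5b 4 each, Stat5a and Socs1 3 each, Stat3, Jak3, Socs2 and Socs3 2 each, and Stat6 had 1, where a peak that lies in overlapping regions counts for each of them. In the deeper library 1 alone the numbers and their order differed, with 22 peaks for Jak1, 12 for Stat5b, 8 for Stat3, 7 for Cish, 6 for Stat5a and Socs2, 5 for Jak3, 4 for Stat6 and 3 for Socs1 and Socs3. These are counts and medians of a list of genes chosen by name, with earlier results of these data known and no test of the list. At a q of at most 1e-10, 7 of 10 genes had a shared peak in the region (not Stat6, Jak3 and Socs3), against 19.6% of all genes. For Stat3, Stat5a and Stat5b this was the same single peak, in intron 6 of Stat5a. At 5-fold or more over the local background 0 of 10 had a shared peak within 2 kb of the start, against 2.67%.

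**Figure D1:**
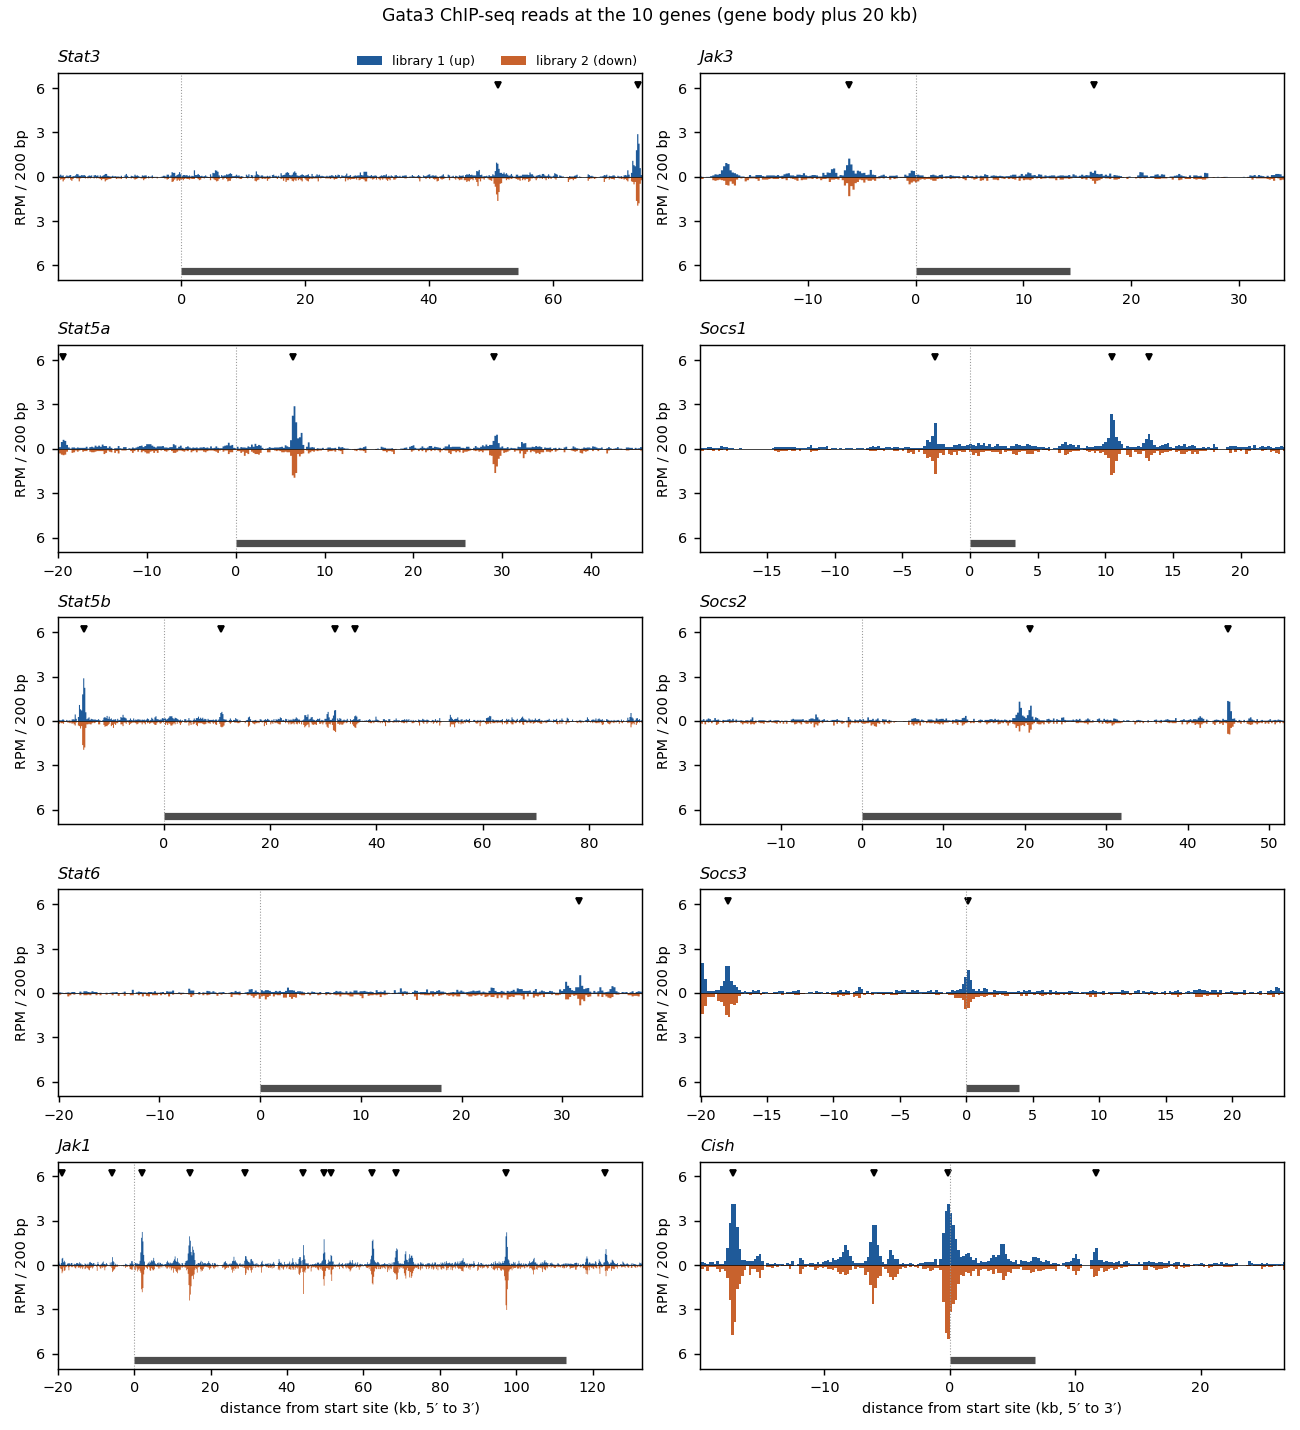
Gata3 ChIP-seq reads in adjoining 200-bp windows (RPM, y axis, the same scale in each panel) against the distance from the start site (kb, x axis, 5′ to 3′) for the 10 genes, with library 1 upwards and library 2 downwards. Grey bars mark the gene body and black triangles the summits of shared peaks in library 1. Cish has the tallest windows and Jak1, with the longest region, the most peaks, 12.

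Among the STAT genes, the tallest shared peak lay in intron 6 of Stat5a, a gene on the plus strand (chr11:100859351-100885169). Its summit was 6449 bp into the gene and also lies in the regions of Stat5b and Stat3, so that it is the tallest peak of all 3 genes with a flank of 20 kb. With a flank of 5 kb the tallest peak by the lower library was 0.988 RPM for Stat3 and 0.761 RPM for Stat5b, in place of 2.16 RPM. The peak in intron 6 of Stat5a held 120 reads of library 1 (5.60 times the local background, p = 5.0e-49) and 54 of library 2 (5.70 times, p = 2.2e-23, both by one-sided exact Poisson tests). This was 2.96 RPM (2.46 to 3.54) and 2.16 RPM (1.63 to 2.82), at the 92.0 percentile of shared peaks, and the intervals of the libraries overlapped. The 200 bases around the summit are given on the plus strand, with GATA sequences in capitals (AGATAA on either strand, where the first base may also be T and the last base G), as in all sequences below, and they hold 2 of these. Distances in the labels of sequences, upstream or downstream, are counted from the start of the gene.
Stat5a intron 6, chr11:100865701-100865900: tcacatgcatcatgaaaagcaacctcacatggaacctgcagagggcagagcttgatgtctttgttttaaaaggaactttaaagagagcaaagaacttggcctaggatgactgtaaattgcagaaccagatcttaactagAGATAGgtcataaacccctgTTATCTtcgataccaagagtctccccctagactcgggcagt
A peak near the start of Stat5a was called in library 1 alone, and the highest window within 500 bp of the start held 12 and 6 reads.

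Stat3, the STAT of IL-6 and IL-21, lies on the minus strand (chr11:100885098-100939540). Its second shared peak was in the last exon, exon 24, in sequence annotated as 3′ UTR, 51090 bp from the start. It held 40 reads in library 1 and 47 in library 2, or 0.988 RPM (0.706 to 1.34) and 1.88 RPM (1.38 to 2.5). Of the 31 shared peaks it was the 1 whose intervals did not overlap between the libraries, with the higher value in the shallower library, and its summits lay 150 bp apart. The peak lies 1862 bp from the start of a shorter Stat3 transcript, so that Stat3 also counts as a gene with a promoter peak if every annotated transcript start is used. Only the GATA site of this window is given.
Stat3 exon 24, chr11:100888496-100888525: ttacataacagtTTATCAcccacactcact

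Stat5b (chr11:100780731-100850724, minus strand), which acts with Stat5a downstream of IL-2, had 3 shared peaks in its gene body, all in intron 1, of which the peak nearest the start also lies in the region of Stat5a. At 36.0 kb from the start the summit held 18 and 14 reads, at 32.1 kb 40 and 19 reads, and at 10.8 kb 29 and 13 reads. The heights were 0.444 to 0.988 RPM in library 1 and 0.521 to 0.761 RPM in library 2, and the peaks ranked at the 8.33, 46.9 and 16.9 percentiles, below the median of all shared peaks. The peaks at 10.8 and 32.1 kb had summits 350 bp and 250 bp apart in the libraries, so their positions are less certain than those of the other peaks. Only the middle peak, at 32.1 kb, had a GATA sequence within 100 bp of its summit in library 1.

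Stat6, which carries the IL-4 signal in TH2 cells, lies on the plus strand of chromosome 10 (chr10:127642986-127660957), and its gene body and promoter had no shared peak. Its only shared peak lay downstream, 31.7 kb from the start and inside Nemp1, with the start of Nab2 nearest to it. The summit held 52 and 24 reads, 1.28 RPM (0.959 to 1.68) in library 1 and 0.962 RPM (0.616 to 1.43) in library 2, or 4.14- and 4.76-fold over the local background. The highest window within 500 bp of the Stat6 start held 12 and 9 reads, 0.296 and 0.361 RPM, at the 80.5 percentile of all genes. The 200 bases around the downstream summit hold no GATA sequence and an AP-1 sequence (TGACTCA or TGAGTCA, the same site read on opposite strands), here in capitals.
Stat6 downstream, chr10:127674551-127674750: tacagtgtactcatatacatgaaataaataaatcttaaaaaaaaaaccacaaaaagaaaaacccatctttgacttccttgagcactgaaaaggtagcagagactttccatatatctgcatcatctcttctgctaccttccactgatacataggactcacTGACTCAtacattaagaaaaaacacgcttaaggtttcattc

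Jak1, a kinase shared by many cytokine receptors of T cells, lies on the minus strand of chromosome 4 (chr4:101152367-101265282) and had the most shared peaks, 12 in 152.9 kb. Its region was the longest of the 10, and per 100 kb Cish had more shared peaks, 8.555 against 7.847 for Jak1. Of the 12 peaks of Jak1, 9 lay in introns, 8 of them in intron 1, 2 lay upstream and 1 downstream inside Raver2. GATA sequences stood within 100 bp of 11 of the 12 summits, against 70.9% of all shared summits. The tallest by the lower library, in intron 11 and 97.4 kb from the start, held 91 reads of library 1 (5.59 times the local background, p = 1.4e-37) and 78 of library 2 (5.33 times, p = 3.9e-31, both by one-sided exact Poisson tests). Its height was 2.25 RPM (1.81 to 2.76) and 3.13 RPM (2.47 to 3.90), at the 92.6 percentile.
Jak1 intron 11, chr4:101167801-101168000: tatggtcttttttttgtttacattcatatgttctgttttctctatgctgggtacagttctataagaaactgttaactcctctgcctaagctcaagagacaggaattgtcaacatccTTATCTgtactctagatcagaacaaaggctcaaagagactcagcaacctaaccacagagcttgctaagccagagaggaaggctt

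The peak nearest the start of Jak1 lay 1982 bp from the start, in intron 1 and just within the 2 kb that count as promoter, while the nearest peak of the set outside that limit was that of Socs1 at 2564 bp. It held 92 and 48 reads, 2.27 RPM (1.83 to 2.79) and 1.92 RPM (1.42 to 2.55). At the start of Jak1 itself the highest window within 500 bp held 10 reads in each library, 0.247 and 0.401 RPM, at the 72.3 percentile of all genes. The promoter call of Jak1 therefore rests on a peak in intron 1, and it was lost with a promoter of 1 kb. This summit stands next to an AGATAA.
Jak1 intron 1, chr4:101263201-101263400: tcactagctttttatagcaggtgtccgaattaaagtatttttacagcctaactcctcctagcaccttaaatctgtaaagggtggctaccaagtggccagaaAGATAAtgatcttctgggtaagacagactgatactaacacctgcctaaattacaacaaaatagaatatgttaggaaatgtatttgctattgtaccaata

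The other intronic peaks of Jak1 spread over intron 1. At 14.5 kb from the start the summit held 81 and 61 reads (2 and 2.44 RPM), at 62.3 kb 79 and 39 reads (1.95 and 1.56 RPM), at 49.6 kb 74 and 34 reads (1.83 and 1.36 RPM), and at 44.2 kb 56 and 48 reads (1.38 and 1.92 RPM). All 4 stood at the 79.6 percentile or above. The summits at 68.6, 51.5 and 29.1 kb held 50, 36 and 29 reads of library 1 and 25, 27 and 18 of library 2. The downstream peak held 48 and 18 reads and the upstream peaks, 5.72 kb and 18.8 kb before the start, 23 and 14 and 21 and 16 reads, so that the upstream peaks were the lowest of Jak1. Of the 12 peaks, 6 were higher in RPM in library 1 and 6 in library 2.

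Jak3, the kinase bound to the common gamma chain, lies on the plus strand of chromosome 8 (chr8:71676296-71690575) and had 2 shared peaks, neither in the gene. The upstream peak, 6.2 kb before the start and inside Unc13a, 1657 bp from the start of that gene, held 51 and 34 reads, 1.26 RPM (0.937 to 1.66) and 1.36 RPM (0.943 to 1.90). The downstream peak, inside B3gnt3 and with Insl3 as the nearest start, held 19 and 13 reads and ranked at the 9.76 percentile. Close to the Jak3 start, 22 and 11 reads fell in the highest window within 500 bp, 0.543 and 0.441 RPM, at the 91.2 percentile of all genes. There a peak was called in library 1 and not in library 2. With library 1 alone, 5 of 10 genes had a promoter peak (Stat5a and Jak3 in addition to the others), against 28% of all genes, and with library 2 alone 3 of 10, against 13.1% of all genes.

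Cish, an inhibitor that STAT5 induces and that binds cytokine receptors, had the highest density of Gata3 ChIP-seq reads and the tallest shared peaks of the 10 genes. It lies on the plus strand of chromosome 9 (chr9:107296026-107302784). Of its 4 shared peaks 3 stood at or above the 95 percentile. The peak at the start had its summit 126 bp before the gene and held 167 reads of library 1 (4.09 times the local background, p = 2.1e-49) and 142 of library 2 (5.05 times, p = 1.6e-52, both by one-sided exact Poisson tests). This was 4.12 RPM (3.52 to 4.80) and 5.69 RPM (4.79 to 6.71), at the 99.3 percentile of shared peaks. Among the highest windows within 500 bp of the starts of all genes, that of Cish stood at the 99.9 percentile by the lower library. The window holds an AGATAA, written TTATCT on the plus strand.
Cish start peak, chr9:107295801-107296000: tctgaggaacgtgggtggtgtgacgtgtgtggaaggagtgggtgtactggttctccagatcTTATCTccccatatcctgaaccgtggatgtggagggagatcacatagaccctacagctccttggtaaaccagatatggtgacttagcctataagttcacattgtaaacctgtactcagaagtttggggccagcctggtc

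The RefSeq start of Cish lies 759 bp after this summit, in the first exon of the GENCODE transcript, and the non-coding Gm17040 is annotated across both starts. Right at the RefSeq start stand 2 copies of TTCNNNGAA, the sequence that STAT dimers bind. The 300 bases from 250 before to 50 after the RefSeq start held 95 and 78 reads, 2.35 and 3.13 RPM. No summit fell on the STAT sequences, which lie past the end of the start peak as called in library 1 (chr9:107295401-107296600). The 300 bases overlap that peak, so their reads are not those at the STAT sequences alone. Of 32851 RefSeq promoters of the same length (GRCm38.p6), 8.30% held TTCNNNGAA at least once and 0.457% (150) as often as Cish or more. The 30 bases with both copies in capitals are given.
Cish start, chr9:107296654-107296683: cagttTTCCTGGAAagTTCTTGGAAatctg

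The tallest peak of Cish by the lower library lay 17.3 kb upstream, inside Mapkapk3. It held 176 reads of library 1 (5.16 times the local background, p = 6.1e-66) and 119 of library 2 (5.63 times, p = 6.4e-49, both by one-sided exact Poisson tests). Its height was 4.35 RPM (3.73 to 5.04) and 4.77 RPM (3.95 to 5.71), at the 99.5 percentile. Its window holds a GATA sequence and 2 AP-1 sequences.
Cish 17.3 kb upstream, chr9:107278651-107278850: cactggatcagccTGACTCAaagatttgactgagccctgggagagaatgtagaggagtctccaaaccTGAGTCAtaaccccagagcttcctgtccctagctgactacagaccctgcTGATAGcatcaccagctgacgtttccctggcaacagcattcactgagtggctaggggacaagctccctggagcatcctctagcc
Another peak, 6.03 kb upstream of Cish, lay 123 bp from the start of Mapkapk3, so that it is a promoter peak of that gene. It held 122 and 65 reads, 3.01 RPM (2.5 to 3.60) and 2.60 RPM (2.01 to 3.32). The downstream peak, 11.6 kb from the start, held 54 and 22 reads and ranked at the 57.8 percentile. The tall peaks of Cish thus lay at its start and upstream, among those of a neighbouring gene, and which gene the upstream peaks act on was not tested.

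Socs1, an inhibitor of JAKs that restrains IL-4 and interferon signalling, lies on the minus strand of chromosome 16 (chr16:10782240-10785536) and had 3 shared peaks, none in the gene and none within 2 kb of its start. Its tallest peak, 10.5 kb from the start and downstream of the gene, held 103 reads of library 1 (6.15 times the local background, p = 8.0e-46) and 58 of library 2 (5.99 times, p = 4.8e-26, both by one-sided exact Poisson tests). The heights were 2.54 RPM (2.08 to 3.08) and 2.32 RPM (1.76 to 3), at the 93.3 percentile. This window holds TTATCT in 2 copies, 20 bases apart, which is the GATA sequence read on the other strand.
Socs1 10.5 kb downstream, chr16:10774951-10775150: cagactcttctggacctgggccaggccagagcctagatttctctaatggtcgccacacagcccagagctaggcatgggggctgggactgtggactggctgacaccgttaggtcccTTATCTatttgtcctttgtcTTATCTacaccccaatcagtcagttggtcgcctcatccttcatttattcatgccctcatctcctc
A further downstream peak, 13.2 kb from the start, held 40 and 26 reads, 0.988 and 1.04 RPM. It is 1 of 2 shared peaks of the set with a STAT sequence within 100 bp of the summit, the other being the peak 18.8 kb upstream of Jak1. This window holds TTCNNNGAA in 2 copies, here in capitals, and no GATA sequence.
Socs1 13.2 kb downstream, chr16:10772201-10772400: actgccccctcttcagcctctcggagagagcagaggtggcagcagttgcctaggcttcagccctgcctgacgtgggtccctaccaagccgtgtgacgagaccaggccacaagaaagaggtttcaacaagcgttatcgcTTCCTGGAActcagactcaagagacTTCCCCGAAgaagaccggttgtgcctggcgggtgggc
The upstream peak, 2564 bp before the start of Socs1, lay inside Tnp2 and 560 bp from the start of that gene. It held 70 and 42 reads, 1.73 RPM (1.35 to 2.18) and 1.68 RPM (1.21 to 2.27). At the Socs1 start the highest window held 17 and 10 reads, 0.42 and 0.401 RPM, at the 89.8 percentile of all genes.

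Socs2, which damps growth hormone and STAT5 signalling, lies on the minus strand of chromosome 10 (chr10:95385362-95417180) and had the lowest read density in its region of the 10 genes in library 1. Its peak downstream, 45.0 kb from the start, held 69 and 29 reads, 1.70 RPM (1.33 to 2.16) and 1.16 RPM (0.778 to 1.67). The fold over the local background was 8.10 in library 1, the highest of the 31 peaks, and 6.04 in library 2. This window holds an AP-1 sequence and no GATA sequence, as at Stat6.
Socs2 45.0 kb downstream, chr10:95372101-95372300: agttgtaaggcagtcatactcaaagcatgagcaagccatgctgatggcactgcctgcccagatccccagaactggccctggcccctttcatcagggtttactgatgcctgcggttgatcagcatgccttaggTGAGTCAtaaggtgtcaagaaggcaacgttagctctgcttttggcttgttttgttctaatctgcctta
The peak in the gene body, in intron 1 of a non-coding transcript and 20.7 kb from the start, held 43 and 21 reads, 1.06 and 0.841 RPM. The highest window within 500 bp of the start held 6 and 5 reads, which was the lowest of the 10 genes, at the 32.4 percentile of all genes.

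Socs3, the inhibitor best known for damping STAT3 signalling, lies on the minus strand of chromosome 11 (chr11:117966079-117970047), and with Cish it was the gene whose shared peak sat at the start. The summit lay 147 bp into the gene, in exon 1 of a non-coding transcript and 534 bp before the RefSeq start. It held 62 reads of library 1 (5.15 times the local background, p = 2.3e-24) and 31 of library 2 (4.26 times, p = 5.8e-11, both by one-sided exact Poisson tests), or 1.53 RPM (1.17 to 1.96) and 1.24 RPM (0.844 to 1.76). This stood at the 76.1 percentile of shared peaks and at the 98.5 percentile of the start windows of all genes. It was lower than the start window of Cish in both libraries, with intervals that did not overlap. Only the GATA site of this window is given.
Socs3 start, chr11:117969945-117969974: ctaactactaccTTATCActcatctgggcc
The taller peak of Socs3 lay 18.0 kb upstream inside Pgs1, 1708 bp from the start of that gene, and held 82 and 45 reads, 2.02 RPM (1.61 to 2.51) and 1.80 RPM (1.32 to 2.41). Its window held no GATA, AP-1 or STAT sequence. The RefSeq promoter of Socs3 holds TTCNNNGAA once, 154 bases before the start, and had 14 and 13 reads.

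**Figure D2:**
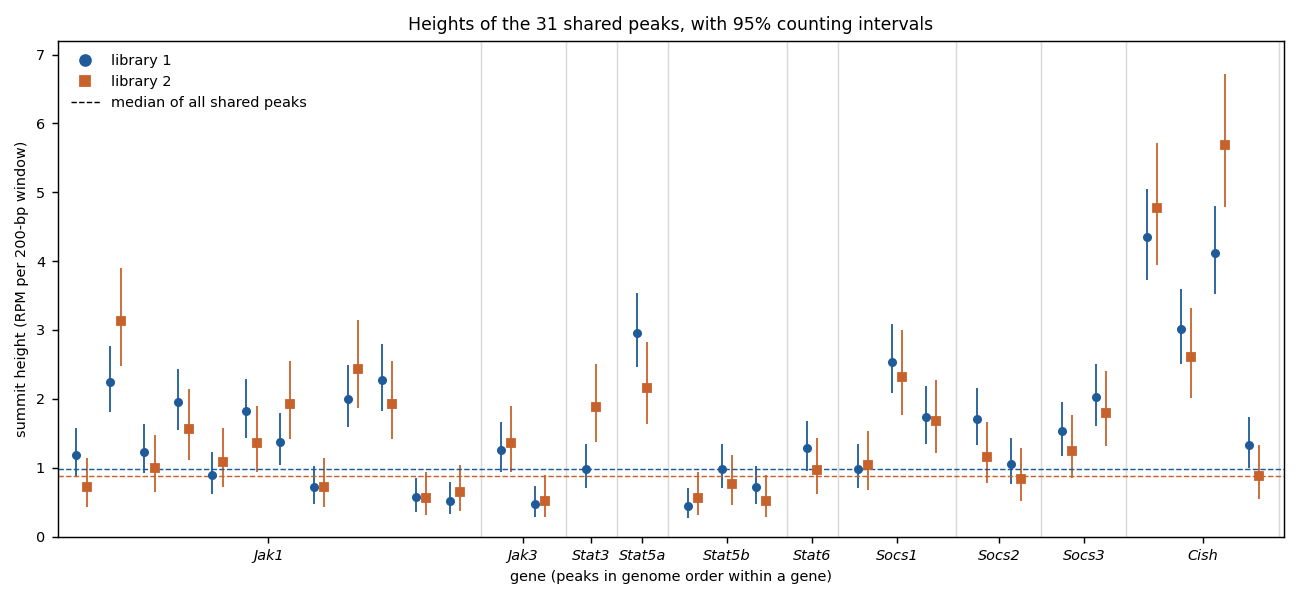
Summit heights (RPM per 200-bp window, y axis from 0) of the 31 shared peaks by gene (x axis), with library 1 as circles, library 2 as squares, and 95% exact Poisson intervals as bars. Dashed lines are the medians of all shared peaks, 0.988 RPM in library 1 and 0.881 RPM in library 2; the peaks at the start of Cish and 17.3 kb upstream of it stand above those of the other genes.

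The heights of the 31 peaks had a median of 1.33 RPM in library 1 and 1.24 RPM in library 2, against 0.988 and 0.881 RPM over all shared peaks. By the lower of the libraries the medians were 1.16 and 0.801 RPM, and 23 of the 31 peaks stood at or above the median of all shared peaks. In the plot of heights the 3 peaks of Stat5b, the downstream peak of Jak3 and 3 peaks of Jak1 (29.1 kb into the gene and 5.72 and 18.8 kb upstream) lie at or below the dashed line of each library. In library 1 the height was greater for 18 of the 31 peaks, and no share over all shared peaks is given beside this count. The summits of 28 of the 31 (90.3%) lay within 100 bp of each other in the libraries, against 79% of all shared peaks. At a q of at most 1e-10 in both libraries, there were 12 shared peaks in the regions, 38.7% of the main number, against 21.7% over the genome. At 5-fold or more the shares were 25.8% and 26.7%, so that the peaks of the 10 genes were close to all shared peaks by this measure.

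**Figure D3:**
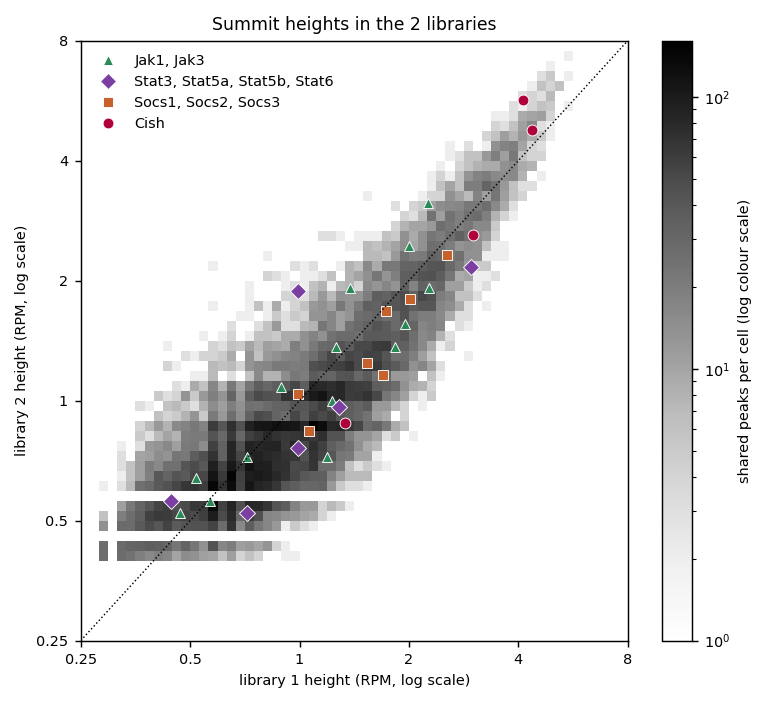
Summit height in library 2 against library 1 (RPM, both axes on a log scale) for the 31 shared peaks of the 10 genes, marked by gene group, over all 23806 shared peaks in grey (darker cells hold more peaks, log colour scale, gaps at low values are steps of single reads). The dotted line marks equal heights; 18 of the 31 peaks lie below it, and the diamond farthest above it is the peak in the last exon of Stat3.

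Over the whole regions, the read density of each of the 10 genes was above the median of all protein-coding genes, 0.499 RPM per kb in library 1 and 0.489 in library 2, and 5 of 10 were above the 90th percentile in both libraries. Cish had 2.09 RPM per kb in library 1 and 2.11 in library 2, the 5th and 4th highest of 21938 genes. Next came Jak1 with 1.02 and 1.07 RPM per kb and Socs1 with 0.941 and 0.951. Then followed Stat5a with 0.842 and 0.759 RPM per kb and Socs3 with 0.838 and 0.792, which changed places between the libraries and were not told apart. Jak3 (0.731 and 0.641), Stat5b (0.710 and 0.623), Stat3 (0.707 and 0.630), Stat6 (0.663 and 0.579) and Socs2 (0.6 and 0.585) lay close together, and their order differed between the libraries. The order from Cish to Socs1 was the same in both. Since Stat3, Stat5a and Stat5b share part of their regions, their densities share reads.

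**Figure D4:**
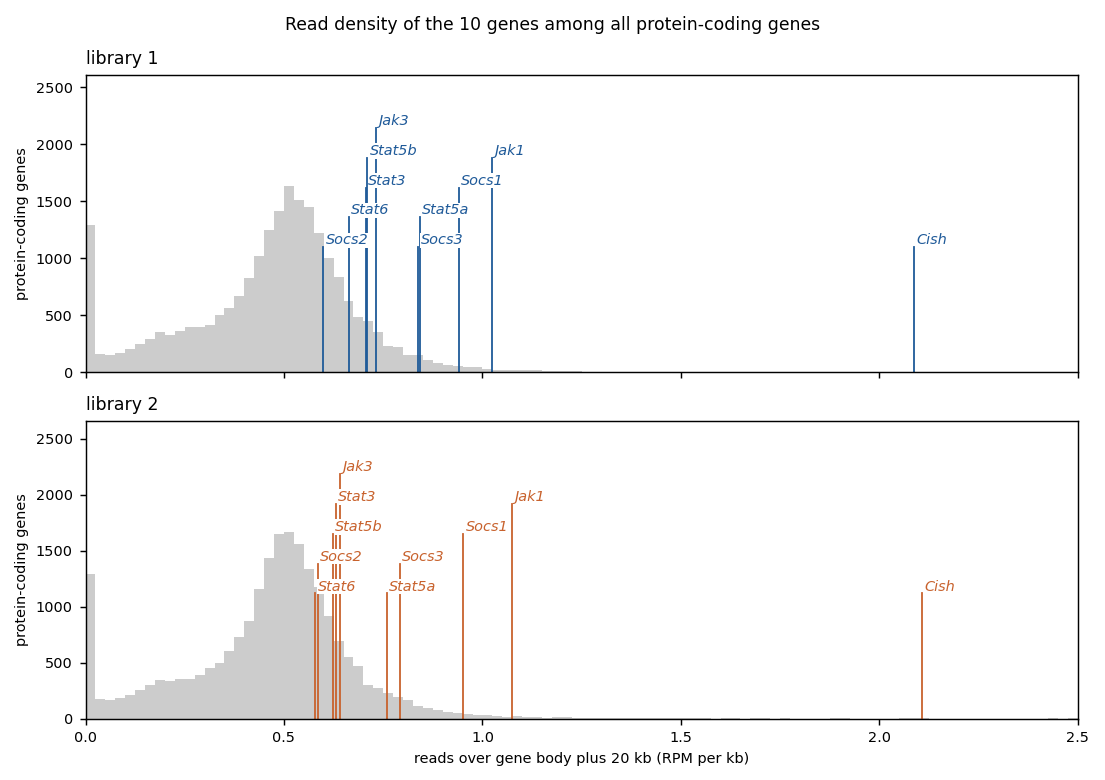
Number of protein-coding genes (y axis) by read density over the gene body and 20 kb to either side (RPM per kb, x axis) in library 1 (top) and library 2 (bottom), with the 10 genes as labelled lines whose length carries no value. Cish stands at 2.09 and 2.11 RPM per kb, apart from the other 9, and 1 gene per library lies beyond the right edge.

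The high density of Cish was not confined to its shared peaks. Shared peaks took 44.9% of the reads of the Cish region in library 1 and 43.0% in library 2, on 7.49% of its length. Outside them the density was still 1.24 and 1.30 RPM per kb, against a median of 0.472 and 0.468 over all protein-coding regions. Peaks called in 1 library alone count as outside here, and Cish had 7 peaks in library 1 against 4 shared. With no input library, how much of this density is background was not tested. For Jak1 the values outside the peaks were 0.788 and 0.859 RPM per kb and for Socs1 0.712 and 0.754. With the reads of its peaks included, the density was 3.44 and 3.43 RPM per kb in the gene body of Cish, 2.85 and 2.90 in the 20 kb upstream, and 0.865 and 0.871 downstream. Of the 200-bp windows of each region, 0.905% (Socs3) to 7.83% (Socs1) were empty in both libraries, and whether these could be mapped was not tested. The log2 ratio of density, library 2 over library 1, ran from -0.20 (Stat6) to 0.07 (Jak1), within the 5th to 95th percentiles of all regions, -0.27 to 0.24.

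The peaks of the 10 genes had GATA sequences about as often as shared peaks elsewhere. A GATA sequence lay within 100 bp of 23 of the 31 summits (74.2%), against 70.9% of all shared summits and 33.2% of windows of the same length 1 kb to either side of these. Within 50 bp the shares were 41.9% and 46.4%, and for AGATAA alone within 100 bp 35.5% and 40.7%, so that the peaks of the 10 genes were above all shared peaks in the first count and below them in these. In the gene bodies 13 of 16 peaks had one and outside them 10 of 15, a split that is not given for all shared peaks. An AP-1 sequence lay at 6 of 31 summits (19.4%), against 12.3% of all shared summits and 3.53% of the windows beside them. In 4 of these 6 a GATA sequence was present too, and the other two were the downstream peaks of Stat6 and Socs2. A STAT sequence (TTCNNNGAA, or the same with 4 bases between) lay at 2 of 31 summits (6.45%), against 13.0% of all shared summits and 11.6% of the windows beside them. Within 50 bp the shares were 6.45%, 6.61% and 5.65%, and for TTCNNNGAA alone within 100 bp 6.45%, 7.52% and 6.31%, so that the gap was small in these counts. Of the 31 peaks 5 held none of the 3 kinds. Since TTCNNNGAA reads alike on both strands and the GATA and AP-1 sequences were searched on both, these shares cover both strands; they are descriptions of 31 windows, and no match says only that these letters are not in the window.

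Of the 10 genes, 9 had an entry among the RefSeq promoters, with 11 promoters in all; Socs2 had none. In these 11 promoters no GATA or AP-1 sequence was found, and of all 32851 promoters 29.8% held a GATA sequence and 5.20% an AP-1 sequence. At the starts of Stat3, Stat5b and Stat6 the highest window within 500 bp held 15 and 6, 10 and 6, and 12 and 9 reads. These 3 genes, like Socs1 and Socs2, had no peak within 2 kb of the start in either library. Windows of these 3 stood above the median of all genes, at the 68.5 percentile for Stat3 and Stat5b and the 80.5 percentile for Stat6. Their values were 0.370 and 0.240 RPM for Stat3 and 0.247 and 0.240 RPM for Stat5b, against a median of 0.198 RPM over all genes by the lower library.

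A wider list of 26 genes of the pathway (other STATs, JAKs, SOCS genes, phosphatases, PIAS genes, receptors and target genes) gave 23 with a shared peak in the region, 8 with a promoter peak and 14 with a peak in the gene body, beside 54.8%, 11.7% and 29.4% of all genes. Their median was 3.20 shared peaks per 100 kb. Promoter peaks were shared at the phosphatase genes Ptpn2 (3.16 and 3.29 RPM) and Ptpn11 (1.16 and 0.641 RPM) and at Pias2 (2 and 1.48 RPM) and Pias3 (1.28 and 1.04 RPM), which encode inhibitors of activated STATs. They were also shared at the target genes Myc (2.02 and 1.24 RPM), Osm (1.09 and 0.881 RPM), Il2ra (1.56 and 1.44 RPM) and Ccnd3 (1.38 and 1.2 RPM). By the lower library the tallest peaks in these regions were those of Pias2 (4.27 and 4.97 RPM, 7.89 kb into the gene), Ptpn6 (4.12 and 3.85 RPM, 11.9 kb upstream), Jak2 (3.78 and 3.85 RPM, downstream) and Ptpn2 at its start. By the lower library none of these exceeded the upstream peak of Cish (4.35 and 4.77 RPM). The peak of Pias2 was higher than it in library 2, and these peaks of Pias2 and Cish were not told apart. Stat2, Socs7 and Pim2 had no shared peak in their regions, although library 1 alone had 1, 2 and 5.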

How the data were processed

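Per the study's methods and the submitters' processing notes, alignment by the authors was to GRCm38, with Bowtie2 (version 2.3.5.1), and only uniquely mapped reads were kept. MACS2 (version 2.1.2) is named in these notes without its role. The authors deposited 1 line per read with its mapping quality score (22 to 44), which is not a measure of binding. In the deposited lines 0 reads shared a 5′ end and strand within a library, so duplicates were already absent, which limits how high a peak can rise.

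Reads were shifted by 100 bp and counted in 200-bp windows every 50 bp on chromosomes 1 to 19, X and Y. Windows with a q of at most 0.01 within 100 bp of each other were joined, and peaks overlapping by at least 1 bp were shared. Peaks were assigned to genes by the library 1 summit. Introns were numbered in the coding transcript with the most exons that covers the summit, and, where none does, in a non-coding one. The calling was also tested on simulated data with planted sites. The 10 genes and the wider list were chosen with earlier results of these data known. From the wider list, genes with a shared promoter peak or the 4 tallest peaks were named, and from the neighbours those that hold or lie nearest to a flanking peak. The depth, 40526613 and 24970952 reads, limits low peaks more in library 2. The alternatives were stricter thresholds, other windows, flanks, promoters, motifs and backgrounds, no shift, a mapping quality of at least 30, thinning of library 1, and each library alone. No test compared conditions, of which there was 1. Python 3.11.15, NumPy 2.4.6, SciPy 1.17.1 and Matplotlib 3.10.9 were used.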

Additional observations from a re-analysis of the deposited data

How the results depend on the processing

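The number of genes with a shared peak in the region, 10, fell to 7 under either stricter threshold, a q of 1e-10 or a minimum of 5-fold, which left Stat6, Jak3 and Socs3 without one, and to 9 with a flank of 5 kb, without Stat6. The shares of all genes were 19.6%, 24.4% and 39.5%. Under either stricter threshold Stat3, Stat5a and Stat5b counted through the same single peak, in intron 6 of Stat5a. The 31 distinct shared peaks became 12 at a q of 1e-10, 8 at 5-fold or more and 20 with a flank of 5 kb, and 33 to 68 with either library alone. The 3 genes with a promoter peak became 0 at 5-fold or more and 3 to 5 with either library alone. A q of 1e-10 lost Socs3, and 100-bp windows or a promoter of 1 kb lost Jak1. The 6 genes with a gene-body peak became 2 (Stat5a and Jak1) with a q of 1e-10 or with 5-fold or more, against 9.6% and 11.4% of all genes. This list lost Stat5b with 100-bp windows and Stat3 where summits had to lie within 100 bp of each other. It gained Cish with library 1 thinned or alone. The shares of all genes are not given for these settings. The share of all protein-coding genes with a promoter peak, 11.7%, became 2.77% at a q of 1e-10, 2.67% at 5-fold or more, 7.39% with 1 kb, and 13.1% to 28% with either library alone. The median height of the tallest peak of each gene, 2.16 RPM, became 1.93 RPM with 400-bp windows, scaled to 200 bp, and 2.16 to 2.41 RPM with either library alone. The value of 2.16 RPM is that of the peak in intron 6 of Stat5a, which counts for Stat3, Stat5a and Stat5b. With a flank of 5 kb this median was not computed. The tallest peak was then lower for every gene but Stat5a and Jak1, as with 0.988 RPM for Stat3, 0.761 for Stat5b and 0.469 for Jak3. The median of 2.5 shared peaks per region became 1 at a q of 1e-10, at 5-fold or more and with a flank of 5 kb, 5 with a flank of 50 kb, and 3 to 6 with either library alone. The 23 peaks with a GATA sequence became 13 within 50 bp (41.9%, against 46.4% of all summits) and 11 for AGATAA alone (35.5%, against 40.7%). Fewer windows, bases or letters counted make some of these values lower by construction, and other causes were not tested. With no input library, the absence of a shared peak does not show the absence of Gata3. No paired analysis was possible because there was 1 condition.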
